A study of Mus musculus with 7 samples.

Results

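Antisense and intergenic RNA was followed through 56754 of the 303889 features of a RIP-seq count table. A feature is a stranded interval in which precipitated RNA piled up in wild-type cells. The 56754 were the features absent from the authors' filtered peak list whose bases lay mostly (over 50%) outside any GENCODE M21 gene on their own strand. Of these, 25953 had at least 50% of their bases over a gene on the opposite strand and are called antisense features, and the other 30801 are called intergenic features. Partial overlap with a gene on their own strand was found for 302 antisense and 670 intergenic features. A further 131135 unlisted features lay in introns and 82329 in exons of a gene on their strand. The rule used position and absence from the list. The criterion by which the authors filtered their list is not given in the sources used here. It may have used these same libraries, so absence from the list may not be independent of the fold changes.

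RNA had been precipitated with an EZH2 antibody from mouse embryonic stem cells of a male CAST/B6 Rosa26-RMCE line (a hybrid line with a recombinase cassette at the Rosa26 locus), which all groups shared. They also shared 15% serum and 3 days of doxycycline. What the doxycycline induced is not stated in the labels. The safb/2 DKO group (SAFB DKO, n = 2) consisted of clones 13 and 4, the ezh2 KO group (EZH2 KO, n = 2) of clones 12 and 19, and the WT group (n = 3) of the parental line and clones 20 and 44. Thus each library but the parental one is 1 clone. The series title says that this antibody, raised to human EZH2, also recognises SAFB. The comparison of SAFB DKO with WT asks which of these RNAs need SAFB proteins to be recovered, and that of EZH2 KO with WT asks which need EZH2. RNA of the whole cell lysate was not analysed here, so less RNA in the cells and less RNA precipitated cannot be told apart, nor can fewer cells of a type and less RNA per cell.

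Transcription of mammalian genomes does not stop at annotated gene borders. RNA polymerase II commonly runs past the polyadenylation site of a gene, promoters fire in both directions, and independent antisense or intergenic transcripts arise from enhancers, repeats and long noncoding RNA genes. Such RNA is mostly nuclear and short-lived. SAFB and SAFB2 are nuclear proteins that bind RNA and scaffold or matrix attachment DNA, and EZH2 is the histone H3 lysine 27 methyltransferase of Polycomb repressive complex 2.

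Total counts were 18738499 and 15812517 in SAFB DKO, 7050832 and 8353603 in EZH2 KO, and 21832539, 21051227 and 19024702 in WT. The targeted genes matched the labels: Safb exons had 1.41 and 0.538 CPM (counts scaled to library size) in SAFB DKO, 278 and 305 in EZH2 KO and 112 to 236 in WT. Ezh2 exons had 96.6 and 113 CPM in SAFB DKO, 0.601 and 0.00 in EZH2 KO and 95.3 to 115 in WT. Embryonic stem cell markers summed to 1383 and 1421 CPM in SAFB DKO, 605 and 640 in EZH2 KO and 966 to 983 in WT, with 1 of 8 at 0 (Sox2, which overlaps Sox2ot on its strand, so that its reads were not assigned to it). One of them, Zfp42, ran the other way, with 33.5 and 29.4 CPM in SAFB DKO, 149 and 171 in EZH2 KO and 68.0 to 86.4 in WT. Fibroblast feeder markers summed to at most 9.21 CPM with 3 or 4 of 6 at 0. Neural markers summed to 78.6 and 78.1 CPM in SAFB DKO, 156 and 138 in EZH2 KO and 194 to 273 in WT, with 2 of 5 at 0. Nes made up most of this sum, and Map2 ran the other way in EZH2 KO (36.7 and 35.9 CPM against 21.7 to 29.6 in WT). Trophoblast markers summed to 12.2 and 11.03 CPM in SAFB DKO, 24.7 and 36.5 in EZH2 KO and 18.95 to 21.2 in WT, with 1 or 2 of 4 at 0. The part of these differences in the results below was not tested. In the deposited table EZH2 KO columns follow a naming pattern that SAFB DKO and WT columns do not, and if this marks another sequencing run, genotype and run cannot be told apart in comparisons with EZH2 KO.

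The sequences of 3 items show what kinds of RNA these intervals hold. The first item is a set of microRNAs. Of 1005 mouse microRNA hairpins in RefSeq (GRCm38.p6), 24 lay inside 14 antisense or intergenic features, with 42 mature microRNAs between them. Hairpins inside the features come from primary transcripts for which GENCODE M21 has no gene of that extent. One antisense feature, chr7:3218071-3220861 on the plus strand opposite Nlrp12, holds 6 hairpins of the miR-290 cluster, the most abundant microRNAs of mouse embryonic stem cells. Another, chr3:127545415-127546613 on the plus strand opposite Larp7, holds miR-302a, miR-302d and miR-367 of the related pluripotency cluster. Seeds (bases 2 to 8, in capitals) were shared within and between the 2 features: 3 mature microRNAs carried AAGUGCU and 3 carried CUCAAAC.
mmu-miR-294-3p: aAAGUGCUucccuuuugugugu
mmu-miR-295-3p: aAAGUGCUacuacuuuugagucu
mmu-miR-302d-3p: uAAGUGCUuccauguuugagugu
mmu-miR-290a-5p: aCUCAAACuaugggggcacuuu
mmu-miR-292a-5p: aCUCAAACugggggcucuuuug
mmu-miR-293-5p: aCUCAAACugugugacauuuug

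The second item lies in the most abundant autosomal antisense feature that fell in SAFB DKO, chr12:109590024-109593139 on the plus strand opposite Rtl1, a retrotransposon-derived imprinted gene. It holds miR-431, miR-433 and miR-127, maternally expressed microRNAs that match the Rtl1 transcript because they are made from the opposite strand of it. Their mature forms are shown because the feature returns below; capitals again mark the seed, and the 3 seeds differ.
mmu-miR-431-5p: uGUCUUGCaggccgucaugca
mmu-miR-433-3p: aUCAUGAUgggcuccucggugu
mmu-miR-127-3p: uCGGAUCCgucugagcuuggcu

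The third sequence is a whole feature, the strand opposite 7SK, shown because it was one of the few abundant antisense features that rose in SAFB DKO. It spans chr9:78175327-78175466 on the plus strand (140 bases, mm10), opposite bases 168 to 307 of the 331 bases of Rn7sk, the small nuclear RNA that holds the elongation factor P-TEFb inactive. No part is capitalised, since no motif was searched in it.
antisense of 7SK: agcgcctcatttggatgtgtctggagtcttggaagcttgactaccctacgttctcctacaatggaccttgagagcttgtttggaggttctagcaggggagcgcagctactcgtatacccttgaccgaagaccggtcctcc

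Together the antisense features took 3.26% and 2.26% of all counts in SAFB DKO, 2.79% and 2.66% in EZH2 KO, and 3.03%, 2.89% and 2.75% in WT. The 2 SAFB DKO clones lay on both sides of the WT range, and no group was separate from another. Against WT the ratio was 0.956 in SAFB DKO (exact two-sided permutation p = 0.8 over libraries) and 0.943 in EZH2 KO (exact p = 0.3). Intergenic features took 2.62% and 2.55% in SAFB DKO, 4.27% and 4.42% in EZH2 KO, and 3.91%, 3.75% and 3.81% in WT, so that every SAFB DKO library lay below every WT library and every EZH2 KO library above. The ratio to WT was 0.675 in SAFB DKO and 1.14 in EZH2 KO (exact permutation p = 0.1 for each, the smallest possible for 2 against 3 libraries), and SAFB DKO over EZH2 KO was 0.595 (exact p = 0.333, the smallest possible for 2 against 2). These exact tests cannot reach 0.05, before or after adjustment. The 95% exact (Clopper-Pearson) intervals were narrow, for example 2.61232 to 2.62678% for intergenic features in the first SAFB DKO library and 4.25398 to 4.28383% in the first EZH2 KO library. They and the floors given below hold counting error and nothing else, because PCR copies of 1 molecule could not be recognised. The antisense ratio turned with single libraries: SAFB DKO over WT was 1.13 without SAFB DKO replicate 2 and 0.784 without SAFB DKO replicate 1.

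**Figure D1:**
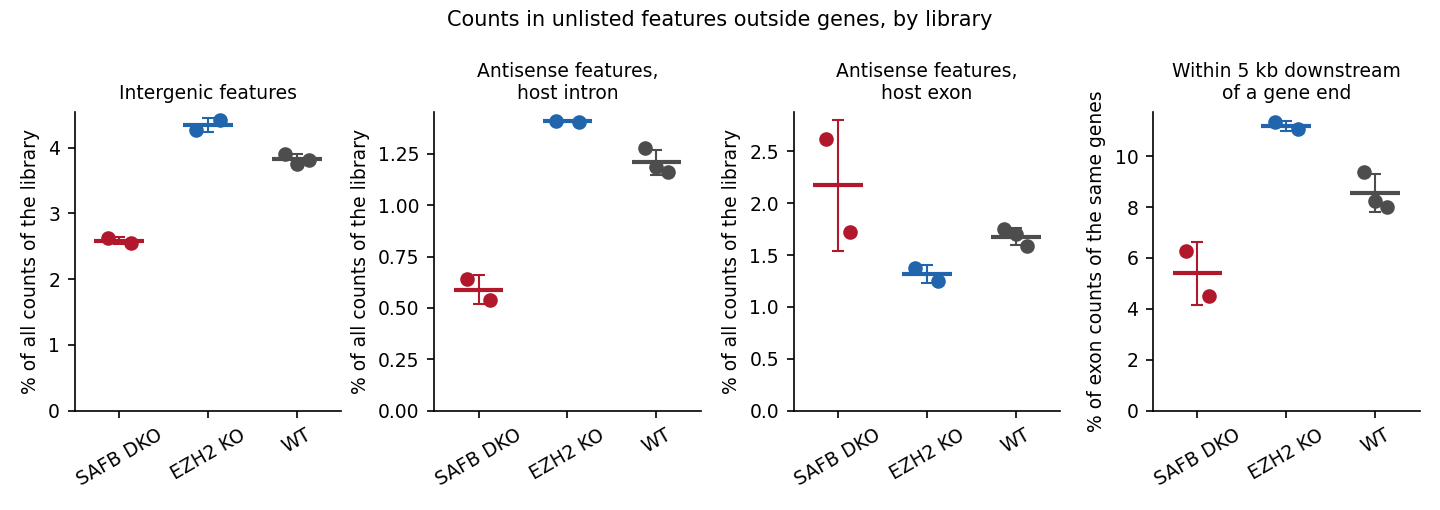
Percent of all counts per library (points, 1 per clone or line) in intergenic features and in antisense features over introns and over exons of the gene opposite. The last panel shows counts within 5 kb downstream of a gene end as percent of the exon counts of the same genes. SAFB DKO is left, EZH2 KO in the middle and WT right, and the y axis of each panel starts at 0. Intergenic shares separated the 3 genotypes (2.55 to 2.62%, 4.27 to 4.42% and 3.75 to 3.91%). The exon-opposed shares of the 2 SAFB DKO clones, 2.62% and 1.72%, overlapped WT at 1.59 to 1.75%.

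Many of these features fell in SAFB DKO and few rose. Features were tested with edgeR's quasi-likelihood test in 1 fit of all 192964 features that passed a filter on low counts, and "fell" and "rose" stand for a Benjamini-Hochberg adjusted p under 0.05 over all of them. Of the intergenic features 11837 were tested, and in SAFB DKO 3659 fell and 63 rose. Of the antisense features 10853 were tested, and 2213 fell and 121 rose. Among all features tested in SAFB DKO against WT, 17.4% fell and 2.26% rose. Falls were 30.9% of intergenic and 20.4% of antisense features, and rises 0.532% and 1.11%. All tested features include those of the filtered list. Of unlisted intronic features 10.6% fell, and of unlisted exonic features 5.25%. The median log2 fold change was -1.56 for intergenic features, -0.56 for antisense features and -0.17 for all tested features. With features that had no count in a whole group set to a bound (3 counts over that group), the first 2 medians were -1.52 and -0.56. Features were called on the pooled WT libraries and most were sparse, with a median pooled WT count of 16 for intergenic and 18 for antisense features. Of all 56754 features, 36.7% and 41.6% had no count in the SAFB DKO libraries, 54.2% and 40.1% in EZH2 KO, and 4.69 to 7.39% in WT. The tested features are thus not all features of either class, and a choice of intervals on WT reads favours lower values elsewhere. The counts of calls moved with single libraries, and falls outnumbered rises in each case. Without SAFB DKO replicate 1, 2163 intergenic features fell and 22 rose, and 1468 antisense features fell and 11 rose. The antisense median less that of all tested features was -0.90 without SAFB DKO replicate 1 and 0.033 without SAFB DKO replicate 2. Without WT replicate 1 the counts were 2218 and 25 for intergenic and 1267 and 35 for antisense features. Without WT replicate 2, 2386 intergenic and 1420 antisense features fell. Without EZH2 KO replicate 1 or 2, whose spread the fit shares, 5539 and 5508 intergenic and 3372 and 3358 antisense features fell.

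Antisense features differed by what lay opposite them. Over an exon of the opposite gene, 6309 were tested, of which 659 fell and 104 rose in SAFB DKO, with a median of 0.11. Over an intron, 4544 were tested, of which 1554 fell and 17 rose, with a median of -1.83 (-1.78 with features at 0 set to their bound). Exon-opposed features took 2.62% and 1.72% of counts in SAFB DKO, 1.38% and 1.25% in EZH2 KO and 1.59 to 1.75% in WT. Intron-opposed features took 0.639% and 0.538% in SAFB DKO, 1.41% and 1.41% in EZH2 KO, and 1.16 to 1.28% in WT. Their share was 0.487 times that of WT in SAFB DKO and 1.17 times in EZH2 KO (exact permutation p = 0.1 for each). For intron-opposed features every SAFB DKO library lay below, and every EZH2 KO library above, the WT libraries, while for exon-opposed features SAFB DKO overlapped WT. The exon-opposed median in SAFB DKO changed sign with the clone, at -0.63 without SAFB DKO replicate 1 (510 fell and 8 rose) and 0.60 without SAFB DKO replicate 2 (386 fell and 170 rose). The intron-opposed median was -2.34 without SAFB DKO replicate 1 (958 fell and 3 rose) and -2.05 without SAFB DKO replicate 2 (1008 fell and 15 rose). Without WT replicates 1, 2 and 3 in turn, 358, 404 and 459 exon-opposed and 909, 1016 and 1084 intron-opposed features fell. This split was chosen after the data were seen.

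Against the most similar other features, the unlisted intronic ones, intergenic counts were again low in SAFB DKO. Per count in unlisted intronic features there were 0.138 ± 0.00197 intergenic counts in SAFB DKO, 0.215 ± 0.00660 in EZH2 KO and 0.192 ± 0.00780 in WT (mean ± SD, n = 2, 2 and 3 libraries). Neither knockout overlapped WT, and the ratio to WT was 0.716 for SAFB DKO and 1.12 for EZH2 KO (exact permutation p = 0.1 for each). For antisense features there were 0.147 ± 0.0368 such counts in SAFB DKO, 0.135 ± 0.00365 in EZH2 KO and 0.145 ± 0.00586 in WT. It was 1.01 times WT in SAFB DKO (overlapping, exact p = 0.8, and 1.19 and 0.835 with 1 clone each) and 0.928 times WT in EZH2 KO (all below WT, exact p = 0.1). The 5 mitochondrial antisense features held 14.8% and 23.4% of antisense counts in SAFB DKO, 1.03% and 1.98% in EZH2 KO and 5.78 to 10.8% in WT. Without chromosomes M and Y the antisense ratio to WT was 0.89 in SAFB DKO and turned to 1.005 in EZH2 KO. In the test of single features, unlisted intronic features had a median of -0.20 in SAFB DKO and unlisted exonic features 0.31.

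Intergenic features fell in SAFB DKO at every distance past the nearest gene end on the strand. The nearest end lay a median of 29.7 kb away for intergenic and 28.3 kb for antisense features. Intergenic features that started inside a gene and ran out of it (395 tested) had a median log2 fold change of -0.83, with 151 falls and 14 rises. From there the medians were -1.31 up to 1 kb past the end (279 of 893 fell), -1.59 at 1 to 5 kb (669 of 1865), -1.46 at 5 to 10 kb (449 of 1501), -1.53 at 10 to 50 kb (1126 of 3690), -1.62 at 50 to 100 kb (370 of 1367) and -1.85 beyond 100 kb (606 of 2102). In SAFB DKO, at each of the 7 distances the intergenic median lay below that of all tested features. For antisense features the medians were -0.97 for those starting inside a gene on their strand, -1.10 up to 1 kb, -1.37 at 1 to 5 kb, -0.86 at 5 to 10 kb, -0.23 at 10 to 50 kb, -0.32 at 50 to 100 kb and -0.68 beyond 100 kb. The lowest stood at 1 to 5 kb, where 522 of 1634 fell.

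**Figure D2:**
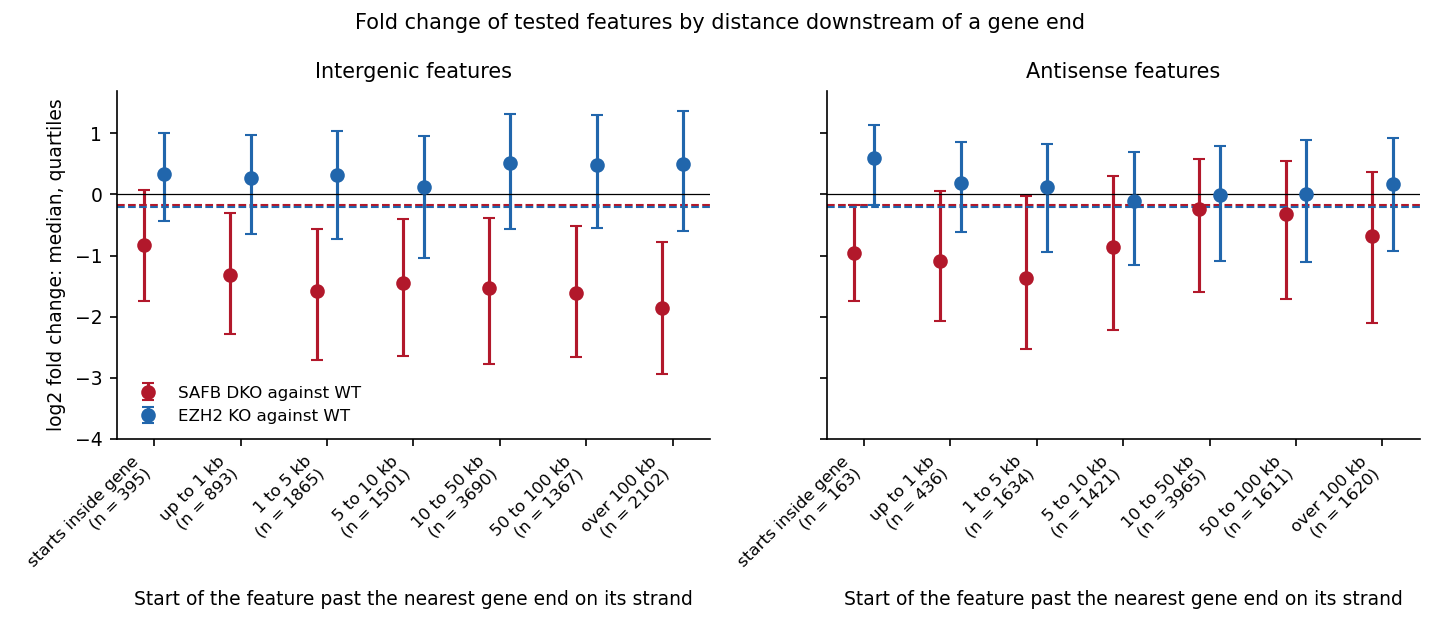
Median log2 fold change (points) with quartiles (bars) of tested intergenic features (left) and antisense features (right) by where the feature starts past the nearest gene end on its strand, SAFB DKO against WT in red and EZH2 KO against WT in blue; dashed lines are the medians of all tested features. Red medians of intergenic features lie between -0.83 and -1.85 at every distance, and blue ones between 0.13 and 0.51.

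Exon-opposed and intron-opposed antisense features were also set out by distance. Intron-opposed features had medians from -1.19 to -1.98 over the 7 distances in SAFB DKO, and exon-opposed features medians from -0.68 to 0.28. Exon-opposed features within 5 kb past a gene end on their own strand had medians of -0.68, -0.63 and -0.59, and those farther away 0.01, 0.28, 0.21 and 0.14. The share of exon-opposed features that fell was highest nearest a gene end, with 31 of 76 that started inside a gene, 69 of 252 up to 1 kb and 202 of 875 at 1 to 5 kb, against 52 of 811 beyond 100 kb.

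**Figure D3:**
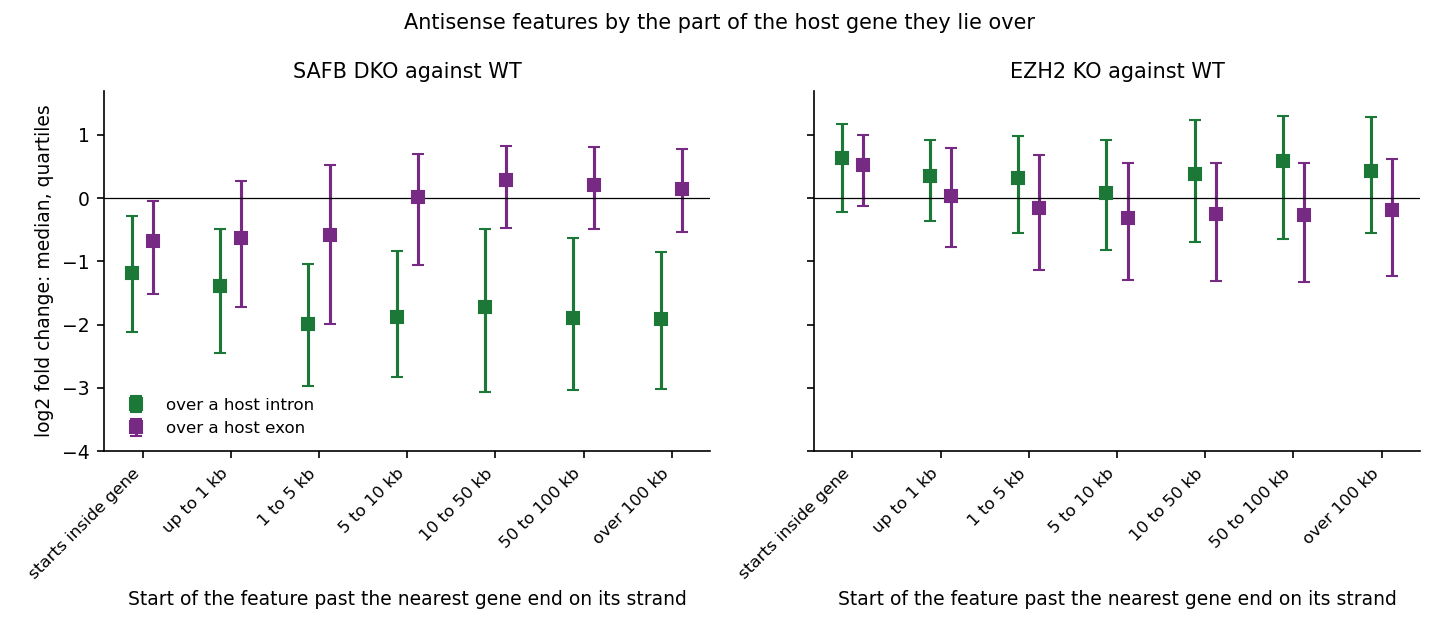
Median log2 fold change (points) with quartiles (bars) of antisense features in SAFB DKO against WT, by distance past the nearest gene end on their own strand, split by whether they lie over an exon or an intron of the opposite gene. Intron-opposed medians stay between -1.19 and -1.98, and exon-opposed medians move between -0.68 and 0.28.

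RNA downstream of a gene can also be set against the exons of the same gene. This ratio does not depend on scaling, but it moves with the exon counts as well as with the downstream counts. Unlisted exonic features took 73.2% and 74.1% of all counts in SAFB DKO, 46.9% and 43.8% in EZH2 KO and 56.0 to 57.8% in WT. The part of the exon counts in the ratios below was not tested. Within 5 kb past their ends, 4132 genes had 5747 antisense or intergenic features with counts. These downstream counts were 6.27% and 4.51% of the genes' exon counts in SAFB DKO, 11.3% and 11.1% in EZH2 KO, and 9.39%, 8.25% and 8.01% in WT. All SAFB DKO libraries lay below, and all EZH2 KO libraries above, the WT libraries, with ratios to WT of 0.63 and 1.31 (exact permutation p = 0.1 for each). Within 10 kb the ratios were 0.593 and 1.30. Within 1 kb SAFB DKO had 11.8% and 8.07%, overlapping WT at 9.84 to 11.4% (ratio 0.946, exact p = 0.8), and EZH2 KO had 13.9% and 13.2% (ratio 1.29). One ribosomal RNA annotation, CT010467.1, whose repeats share reads, held 28.6% and 19.1% of the 5-kb counts in SAFB DKO, 6.71% and 5.52% in EZH2 KO and 6.02 to 6.89% in WT. Without the 8 genes with the most downstream counts the ratio of SAFB DKO to WT was 0.448 and that of EZH2 KO 1.35. Among these 8, Dnmt3l, which encodes a DNA methyltransferase cofactor, held 1.31% and 1.69% of the downstream counts in SAFB DKO, 0.132% and 0.129% in EZH2 KO and 0.491 to 0.715% in WT.

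Of all intergenic counts, those within 5 kb past a gene end made up 19.3 ± 0.806% in SAFB DKO, 24.8 ± 0.442% in EZH2 KO and 24.2 ± 0.435% in WT (mean ± SD). SAFB DKO lay below WT (ratio 0.80, exact permutation p = 0.1) and EZH2 KO overlapped it (ratio 1.02, exact p = 0.3). Part of this share was taken up by chromosome Y, where 135 intergenic features held 16.97% and 9.98% of intergenic counts in SAFB DKO, 1.38% and 3.37% in EZH2 KO and 6.71 to 7.67% in WT. Without chromosomes M and Y the shares within 5 kb were 22.3 ± 0.310% in SAFB DKO, 25.2 ± 0.389% in EZH2 KO and 26.0 ± 0.568% in WT, so that the EZH2 KO value lay below WT (ratio 0.966).

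The most abundant features moved in both directions. The mitochondrial minus-strand feature chrM:11021-14229, opposite the respiratory complex I gene mt-Nd5, had 3488 and 3830 CPM in SAFB DKO, 262 and 605 CPM in EZH2 KO and 1493, 1793 and 2574 CPM in WT. The 3 genotypes did not overlap. Counts from any minus-strand gene within the feature were not separated, so they need not all be antisense RNA. The feature rose in SAFB DKO (log2 fold change 0.91, SE 0.24, edgeR adjusted p = 0.013) and fell in EZH2 KO (-2.17, SE 0.27, adjusted p = 8.7e-05). The rise lost its call without SAFB DKO replicate 2 (0.81, adjusted p = 0.092), without WT replicate 1 (0.73, adjusted p = 0.12) and without WT replicate 2 (0.84, adjusted p = 0.096). On chromosome 17, chr17:39843014-39846249 on the minus strand, opposite Gm26917 and 0.104 kb past the ribosomal RNA annotation CT010467.1, had 2163 and 1071 CPM in SAFB DKO, 885 and 863 CPM in EZH2 KO and 789, 688 and 623 CPM in WT. It rose in SAFB DKO (1.21, SE 0.19, adjusted p = 0.00019), and its value in EZH2 KO was 0.32 (adjusted p = 0.27); ribosomal repeats share reads, so its origin is uncertain.

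A pair of abundant antisense features fell in SAFB DKO. The Rtl1-opposed feature with miR-431, miR-433 and miR-127 had 132 and 193 CPM in SAFB DKO, 715 and 639 CPM in EZH2 KO and 645, 605 and 432 CPM in WT. SAFB DKO lay apart below WT, while EZH2 KO overlapped it in range. The log2 fold change was -1.79 in SAFB DKO (SE 0.18, edgeR adjusted p = 1.8e-06) and 0.27 in EZH2 KO (SE 0.17, adjusted p = 0.29). The feature chr2:165815843-165819582 on the plus strand, opposite an intron of the chromatin reader gene Zmynd8, had 43.7 and 54.2 CPM in SAFB DKO, 539 and 558 CPM in EZH2 KO and 210, 204 and 205 CPM in WT. The groups were far apart in both directions, with -2.08 in SAFB DKO (SE 0.14, adjusted p = 3.3e-08) and 1.41 in EZH2 KO (SE 0.13, adjusted p = 1.4e-05). On chromosome Y, chrY:90811217-90812895 opposite Gm47283 had 627 and 295 CPM in SAFB DKO, 9.92 and 54.7 CPM in EZH2 KO and 324 to 385 CPM in WT. It fell in EZH2 KO (-3.45, adjusted p = 0.00019) and had 0.39 (adjusted p = 0.59) in SAFB DKO.

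The most abundant intergenic feature that fell in SAFB DKO, chr12:109572363-109576803 on the plus strand, started 0.283 kb past Mir673 between Meg3 and Rtl1. It had 160 and 219 CPM in SAFB DKO, 869 and 945 CPM in EZH2 KO and 995, 878 and 893 CPM in WT. SAFB DKO stood alone at the low end, with a log2 fold change of -2.28 (SE 0.14, edgeR adjusted p = 1.4e-08) against -0.02 in EZH2 KO (SE 0.13, adjusted p = 0.93). The feature chr11:57555826-57557467 on the minus strand, 66.2 kb past 4933424L21Rik, had 115 and 149 CPM in SAFB DKO, 814 and 1054 CPM in EZH2 KO and 587, 485 and 504 CPM in WT. It fell in SAFB DKO (-1.99, SE 0.16, adjusted p = 1.0e-07) and rose in EZH2 KO (0.83, SE 0.14, adjusted p = 0.0011). Past the zinc finger gene Gm14403 by 1.13 kb, chr2:177510889-177512287 had 21.1 and 27.3 CPM in SAFB DKO, 260 and 318 CPM in EZH2 KO and 132 to 138 CPM in WT. Its value was -2.48 in SAFB DKO (SE 0.17, adjusted p = 3.2e-08) and 1.09 in EZH2 KO (SE 0.15, adjusted p = 0.00021). The feature chr7:41544083-41546790, which starts inside the zinc finger gene Gm6871 and runs out of it, had 10.3 and 21.1 CPM in SAFB DKO, 69.8 and 272 CPM in EZH2 KO and 59.2 to 85.6 CPM in WT. It fell in SAFB DKO (-2.22, adjusted p = 0.0009). Its rise in EZH2 KO (1.22, adjusted p = 0.036) rested on 1 clone and was -0.13 without EZH2 KO replicate 2. It also missed the threshold without WT replicate 1, 2 or 3 (adjusted p = 0.16, 0.095 and 0.14).

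Other abundant intergenic features rose or had no call in SAFB DKO. The single most abundant, chr17:36231210-36231620 on the minus strand 5.63 kb past Gm20391, had 2181 and 2588 CPM in SAFB DKO, 1892 and 2392 CPM in EZH2 KO and 1610, 1399 and 1619 CPM in WT. Both knockouts stood above WT, at 0.63 in SAFB DKO (SE 0.11, edgeR adjusted p = 0.0007) and 0.47 in EZH2 KO (SE 0.11, adjusted p = 0.011). The call in EZH2 KO was lost without EZH2 KO replicate 2 (0.23, adjusted p = 0.12) and without WT replicate 1 or 2 (adjusted p = 0.051 and 0.078). On chromosome Y, chrY:90741202-90744230 on the minus strand had 2456 and 1242 CPM in SAFB DKO, 99.5 and 311 CPM in EZH2 KO and 1009 to 1327 CPM in WT. It had 0.63 (adjusted p = 0.19) in SAFB DKO and a fall of -2.54 (adjusted p = 0.00021) in EZH2 KO. Its neighbour on the plus strand, chrY:90737653-90740704, had 865 and 640 CPM in SAFB DKO, 471 and 1304 in EZH2 KO and 940 to 1464 in WT. It passed in neither SAFB DKO (-0.77, adjusted p = 0.072) nor EZH2 KO (-0.53, adjusted p = 0.21), although without EZH2 KO replicate 2 its value in EZH2 KO was -1.51 (adjusted p = 2.5e-06). Near-identical copies on chromosome Y can share reads, so these 2 are uncertain.

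**Figure D4:**
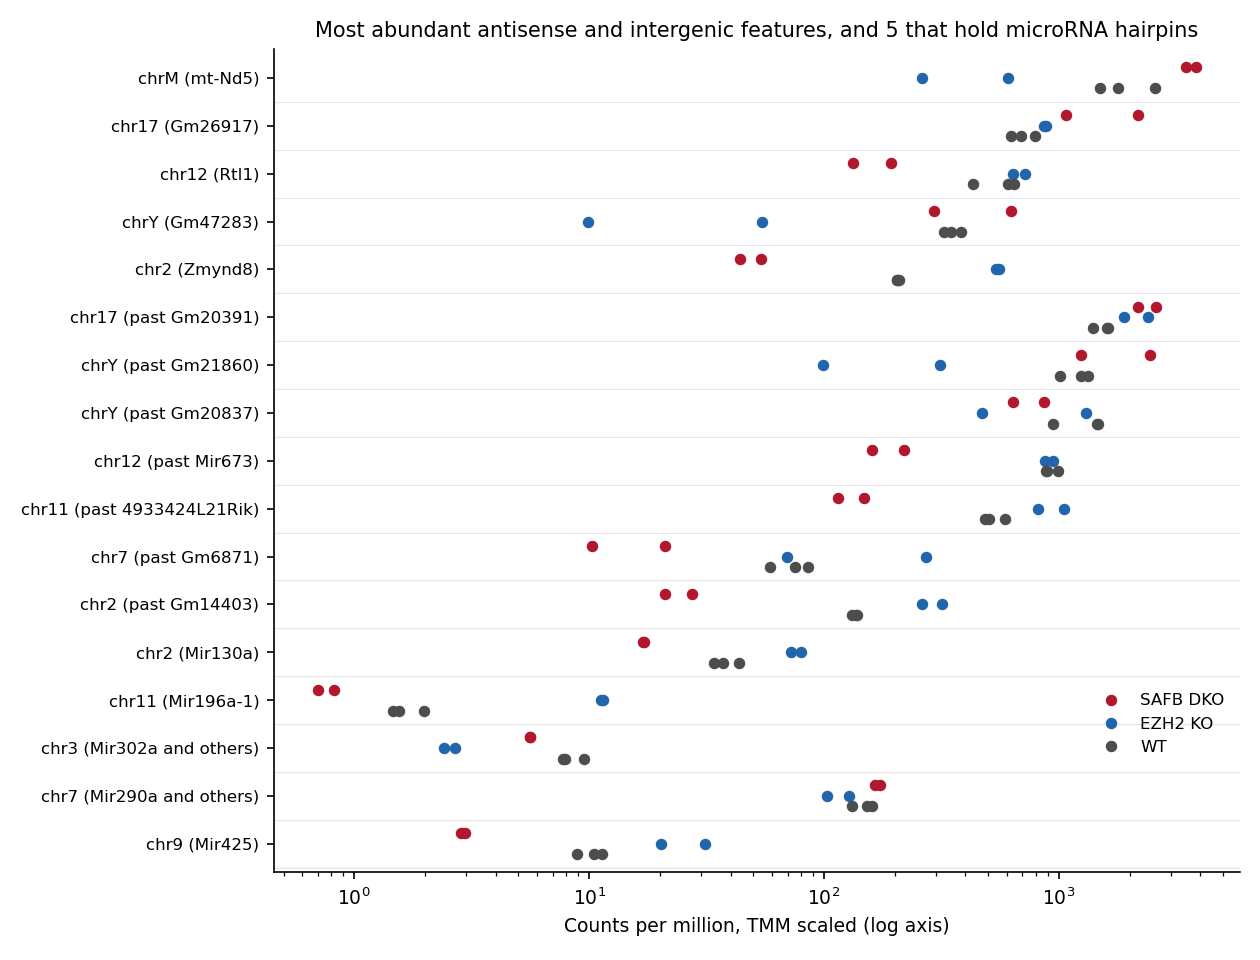
TMM-scaled CPM (log axis) of the 10 most abundant antisense and intergenic features, of 2 that lead their distance class and of 5 features that hold microRNA hairpins, 1 point per library, with SAFB DKO (red) drawn above EZH2 KO (blue) and WT (grey) in each row. Features opposite Rtl1 and Zmynd8 and past Mir673, 4933424L21Rik, Gm6871 and Gm14403 have both SAFB DKO points left of every WT point.

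The largest falls in SAFB DKO were features with no count in either SAFB DKO library. Among antisense ones, chr19:57651175-57651462 opposite an intron of Atrnl1 had 2.87 to 4.78 CPM in WT (at least 55.4-fold lower in SAFB DKO, with 3 counts over the group as floor; edgeR adjusted p = 1.7e-06). The feature chr17:56601025-56601537 lay opposite Safb itself, the deleted gene, and had 2.56 to 4.73 CPM in WT (at least 50.8-fold lower, adjusted p = 5.6e-06). Opposite Gpr75, chr11:30890495-30892128 had 1.41 to 4.24 CPM in WT (at least 43.4-fold lower, adjusted p = 2.5e-05). Among intergenic ones the falls were at least 39.5-fold for chr9:8476320-8478010, which starts inside Gm47517, at least 36.7-fold for chrX:97289351-97290888, 43.0 kb past the ectodysplasin receptor gene Eda2r, and at least 35.7-fold for chr4:54904705-54906917 (adjusted p from 7.4e-06 to 0.00057). EZH2 KO libraries had counts at all 6 of these features, which does not mean that each kept the WT level. Without EZH2 KO replicate 2, the log2 fold change of chrX:97289351-97290888 in EZH2 KO was -4.18. Without EZH2 KO replicate 1, that of chr11:30890495-30892128 was 1.55.

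The largest rises in SAFB DKO were smaller. The clearest was intergenic, chr6:30158670-30159039 on the minus strand, 6.88 kb past Mir182, with 6.02 and 6.996 CPM in SAFB DKO, 0.752 and 1.26 CPM in EZH2 KO and 0.731 to 1.18 CPM in WT. Only SAFB DKO stood apart (2.82, SE 0.40, edgeR adjusted p = 5.7e-05, and 0.13, adjusted p = 0.90, in EZH2 KO). The other intergenic rises, chr11:102568005-102568082 and chr3:18695897-18696538, had log2 fold changes of 2.85 (adjusted p = 0.03) and 2.12 (adjusted p = 0.012). Antisense rises opposite Aldoa (a glycolytic aldolase), Dock6 and Gm6472 had 2.31, 2.24 and 2.15 (adjusted p = 0.0071, 0.019 and 0.015). Except for the Mir182 feature these rises rested on few libraries. Without SAFB DKO replicate 1 the values were 1.02, 1.40 and 1.49 opposite Aldoa, Dock6 and Gm6472 and 0.93 for chr11:102568005-102568082 (adjusted p from 0.29 to 0.74). Without WT replicate 1 they were 2.19, 2.16, 2.24 and 3.67 (adjusted p from 0.063 to 0.10), and without WT replicate 3 they were 2.26, 2.07, 1.97 and 2.27 (adjusted p from 0.054 to 0.14). Without WT replicate 2 the last 3 were at 2.45, 2.20 and 2.89 (adjusted p from 0.067 to 0.14). The call of chr3:18695897-18696538 was lost without any 1 of its 5 libraries (1.98 to 2.21, adjusted p from 0.058 to 0.091).

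In EZH2 KO more intergenic features rose than fell, and which direction led among antisense features depended on scaling. In EZH2 KO against WT, 1297 of 11837 intergenic features rose and 466 fell, and 645 of 10853 antisense features rose and 334 fell. Over all tested features 7.50% rose and 8.07% fell, so that intergenic features rose in 10.96% and antisense features in 5.94%. Medians were 0.39 for intergenic, 0.04 for antisense and -0.21 for all tested features. Intron-opposed antisense features had a median of 0.36 (429 rose, 132 fell of 4544) and exon-opposed ones -0.21 (216 rose, 202 fell of 6309). With TMM factors over all features 529 antisense features rose and 451 fell, and with column totals 467 rose and 642 fell. For intergenic features column totals gave 996 rises and 748 falls. Relative to the values above, these scalings shifted the median of all tested features by -0.13 and -0.25. Single libraries mattered too. Without WT replicate 1, 2 or 3, 628, 644 and 571 intergenic features rose and 161, 182 and 138 fell, and 297, 281 and 247 antisense features rose and 96, 108 and 103 fell. Without EZH2 KO replicate 2, 1453 intergenic features rose and 1190 fell, with a median of -0.11, and 742 antisense features rose and 854 fell.

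By distance, intergenic medians in EZH2 KO were 0.34 for features starting inside a gene, 0.27 up to 1 kb, 0.31 at 1 to 5 kb, 0.13 at 5 to 10 kb, 0.51 at 10 to 50 kb, 0.48 at 50 to 100 kb and 0.50 beyond 100 kb. At 10 to 50 kb 448 of 3690 rose and 140 fell, and at 5 to 10 kb 121 of 1501 rose and 53 fell. Antisense medians were 0.60 for features starting inside a gene on their strand, 0.18 up to 1 kb, 0.12 at 1 to 5 kb, and between -0.11 and 0.16 farther out. Some intergenic features started within 1 kb of an opposite-strand gene start, where divergent promoter transcripts lie. These had a median of 0.83 in EZH2 KO, where 113 of 579 rose (19.5%) and 16 fell. Of all intergenic features 10.96% rose, and of all tested features 7.50%. In SAFB DKO the same features had -1.31 (160 fell, or 27.6%, and 2 rose), beside 30.9% of all intergenic and 17.4% of all tested features that fell. Without EZH2 KO replicate 2 the EZH2 KO median was 0.50 (110 rose and 44 fell), and without WT replicates 1, 2 and 3 in turn 58, 63 and 53 rose. Antisense features with such starts did not follow. Their median was -0.39 in EZH2 KO (12 of 176 rose and 9 fell) and 0.02 in SAFB DKO (28 fell and 11 rose). The 2 knockout comparisons share the 3 WT libraries.

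The largest rises in EZH2 KO were in features that WT hardly held. The antisense feature chr7:30875576-30876992, opposite the B-cell lectin gene Cd22, had 13.8 and 24.5 CPM in EZH2 KO and 0.679, 1.18 and 1.52 CPM in WT (4.07, SE 0.39, edgeR adjusted p = 1.8e-05). The intergenic feature chr14:25795138-25795707, 94.7 kb past Ppif, had 10.97 and 13.8 CPM in EZH2 KO and 0.470 to 0.689 CPM in WT (4.41, SE 0.40, adjusted p = 1.1e-05). Also above WT in both clones were the antisense features opposite Prr3 (4.15, adjusted p = 0.00046) and Cks1brt (4.00, adjusted p = 0.00089) and the intergenic feature chr9:85900356-85900430, 53.3 kb past Tpbg (4.196, adjusted p = 0.0037; 3.29 and adjusted p = 0.12 without EZH2 KO replicate 1). The intergenic feature chr3:62159411-62159493 had 109 and 24.4 CPM in EZH2 KO and 0.518 to 2.53 CPM in WT (5.45, adjusted p = 0.00061), but also 18.9 CPM in 1 SAFB DKO clone and 0.484 CPM in the other. Its SAFB DKO value (2.68, adjusted p = 0.033) was -1.64 without SAFB DKO replicate 1 and missed the threshold without WT replicate 1, 2 or 3 (adjusted p = 0.083, 0.20 and 0.17).

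The largest falls in EZH2 KO had no count in either EZH2 KO library. Antisense ones lay opposite Duox1, an oxidase gene (at least 17.5-fold lower, edgeR adjusted p = 0.00062), opposite Slc22a22, a transporter gene (at least 8.1-fold, adjusted p = 0.0027), and opposite Ezh2, the deleted gene (chr6:47545668-47545907, at least 8.0-fold, adjusted p = 0.0032). The intergenic ones were chr12:40910388-40910485 (at least 16.4-fold), chr6:47771833-47772004 on the strand of Ezh2 and 176 kb before it (at least 11.5-fold) and chr2:111436145-111436285 (at least 9.96-fold). A count of 0 allows up to 0.137 and 0.161 CPM in SAFB DKO, against 0.451 and 0.472 CPM in EZH2 KO, whose libraries were the shallowest.

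SAFB DKO was also set beside EZH2 KO. WT values do not enter this fold change directly, but WT libraries still entered the filter, the scaling and the shared spread. The features also remain intervals called on WT reads. Here 5225 of 11837 intergenic features were lower in SAFB DKO and 604 higher, and 3117 of 10853 antisense features were lower and 1010 higher. Among all tested features 23.3% were lower and 16.6% higher, against 44.1% and 5.10% of intergenic and 28.7% and 9.31% of antisense features. The medians were -1.97 for intergenic and -0.64 for antisense features, with 0.08 over all. With column totals 2632 antisense features were lower and 1661 higher, and the median of all tested features shifted by 0.47. Without EZH2 KO replicate 2 the antisense median changed sign, to 0.15 (3319 lower and 1378 higher). Intron-opposed antisense features had a median of -2.23 (2121 lower, 186 higher) and exon-opposed ones 0.31 (996 lower, 824 higher), with exon-opposed ones at -0.44 without SAFB DKO replicate 1 (883 lower, 256 higher) and 1.03 without SAFB DKO replicate 2 (692 lower, 1035 higher). Intergenic medians ran from -1.19 for features starting inside a gene to -2.23 beyond 100 kb.

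Features near a peak of the authors' list had the lowest medians in SAFB DKO. Intergenic features within 1 kb of a listed peak on their strand had a median of -2.52 in SAFB DKO (889 of 1709 fell and 2 rose) and 0.79 in EZH2 KO (242 rose and 27 fell). Without SAFB DKO replicate 1, 519 fell (median -2.97), and without WT replicate 1, 560 fell in SAFB DKO. Without EZH2 KO replicate 2 the EZH2 KO median was 0.37 (259 rose and 105 fell), and without WT replicates 1, 2 and 3 in turn 124, 110 and 115 rose. At 1 to 10 kb the SAFB DKO median was -1.63 (1190 of 3620 fell), at 10 to 100 kb -1.06 (1054 of 4396) and beyond 100 kb -1.52 (526 of 2112). Intron-opposed antisense features within 1 kb of a listed peak had -2.64 (397 of 722 fell and 0 rose, also 0 at an unadjusted p under 0.05 and by DESeq2), and exon-opposed ones -2.02 (128 of 291 fell and 2 rose), whereas exon-opposed features at 10 to 100 kb had 0.24 (248 of 3597 fell and 60 rose). The filtered list was itself made from WT precipitates, and this split was chosen after the data were seen. The list's filter may also have used the knockout libraries, and features within 1 kb of a listed peak can be parts of the same RNA. The low medians there are therefore not independent of how the list was made.

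Counts opposite exons were small beside the counts of the exons themselves. Exon-opposed antisense features had 5.57% and 3.66% as many counts as the sense features they overlapped in SAFB DKO, 3.78% and 3.70% in EZH2 KO and 4.37%, 4.33% and 3.94% in WT. The SAFB DKO clones spanned the WT range and EZH2 KO lay below it. Across 5826 tested pairs, the log2 fold changes of the antisense and sense features in SAFB DKO correlated with r = 0.515, and across 1789 pairs of intron-opposed features with r = 0.365; pairs are not independent, and both members come from the same libraries. In the intron-opposed pairs the median was -1.63 for the antisense and -0.34 for the sense features. The part that sense reads assigned to the opposite strand have in these values was not tested.

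The strand opposite 7SK, printed above, had 439 and 122 CPM in SAFB DKO, 7.97 and 10.2 CPM in EZH2 KO and 132, 117 and 82.1 CPM in WT. The 2 SAFB DKO clones differed widely and only 1 lay above WT, while EZH2 KO lay far below. The log2 fold change was 1.34 in SAFB DKO (SE 0.33, edgeR adjusted p = 0.0081) and -3.60 in EZH2 KO (adjusted p = 6.3e-05). The SAFB DKO value was 0.13 (adjusted p = 0.80) without SAFB DKO replicate 1 and lost its call without WT replicate 2 or 3 (adjusted p = 0.051 and 0.09). The sense 7SK feature had 26377 and 26699 CPM in SAFB DKO, 1414 and 1572 CPM in EZH2 KO and 15574 to 19155 CPM in WT. Antisense counts were thus 1.66% and 0.456% of sense counts in SAFB DKO, 0.564% and 0.650% in EZH2 KO and 0.484 to 0.751% in WT. The ratio stood outside the WT range in SAFB DKO on both sides and in EZH2 KO lay within it.

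Of the 14 features with microRNA hairpins 13 were tested. The miR-290 feature, with the seeds AAGUGCU and CUCAAAC printed above, had 173 and 166 CPM in SAFB DKO, 103 and 128 CPM in EZH2 KO and 152, 131 and 161 CPM in WT. It was not called in SAFB DKO (0.19, SE 0.15, edgeR adjusted p = 0.46) or in EZH2 KO (-0.36, SE 0.15, adjusted p = 0.12). Its value in EZH2 KO was -0.58 (adjusted p = 0.014) when EZH2 KO replicate 2 was left out. The miR-302 feature had 5.61 and 5.60 CPM in SAFB DKO, 2.41 and 2.67 CPM in EZH2 KO and 7.73 to 9.55 CPM in WT. It fell in EZH2 KO (-1.72, SE 0.34, adjusted p = 0.0026) and had -0.58 (adjusted p = 0.17) in SAFB DKO.

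Of the 8 intergenic microRNA features, all tested, 6 fell and 0 rose in SAFB DKO (7 and 0 at an unadjusted p under 0.05, 5 and 0 by DESeq2, and 4 falls without SAFB DKO replicate 1), where 17.4% of all tested and 30.9% of intergenic features fell. The uncalled ones held miR-196a-1 and miR-674, the miR-674 feature with -0.65 (edgeR adjusted p = 0.63). The feature with miR-130a, which starts inside Gm19426 on chromosome 2, had 16.9 and 17.1 CPM in SAFB DKO, 80.1 and 72.5 CPM in EZH2 KO and 34.0 to 43.3 CPM in WT. It fell in SAFB DKO (-1.16, edgeR adjusted p = 0.00021) and rose in EZH2 KO (1.00, adjusted p = 0.0013). The feature with miR-425 had 2.97 and 2.85 CPM in SAFB DKO, 20.1 and 31.3 CPM in EZH2 KO and 8.92 to 11.3 CPM in WT. It had a fall of -1.81 in SAFB DKO (adjusted p = 0.00011) and a rise of 1.33 in EZH2 KO (adjusted p = 0.0018). The feature with miR-296 and miR-298, 13.2 kb past the imprinted antisense gene Nespas, had 5.29 and 5.11 CPM in SAFB DKO, 16.7 and 20.8 CPM in EZH2 KO and 16.7 to 20.5 CPM in WT. It fell in SAFB DKO (-1.86, adjusted p = 1.9e-05) and had -0.01 (adjusted p = 0.98) in EZH2 KO. The feature with miR-196a-1, a microRNA of the Hoxb cluster, had 0.821 and 0.700 CPM in SAFB DKO, 11.3 and 11.5 CPM in EZH2 KO and 1.46 to 1.98 CPM in WT. It rose in EZH2 KO (2.77, SE 0.34, adjusted p = 8.6e-05), and its SAFB DKO value was -1.12 (adjusted p = 0.058).

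The imprinted region from Meg3 to Mirg on chromosome 12, whose maternal chromosome gives the noncoding RNAs Meg3, Rian and Mirg and many microRNAs and small nucleolar RNAs, held 31 antisense or intergenic features on the plus strand, each of which was tested. SAFB DKO had 11 falls and 0 rises (median -0.70), where 17.4% of all tested, 30.9% of intergenic and 20.4% of antisense features fell. EZH2 KO had 13 falls and 0 rises (median -0.95), against 8.07% of all tested features that fell. The fall in EZH2 KO was not particular to these features. Of the region's 65 other unlisted features tested, 26 fell and 2 rose in EZH2 KO (median -0.80). In SAFB DKO 9 of those 65 fell and 0 rose (median -0.27). For the 31 features there were also 0 rises in both knockouts at an unadjusted p under 0.05. DESeq2 gave 9 falls and 0 rises in SAFB DKO and 12 and 0 in EZH2 KO for them. Without SAFB DKO replicate 1, 3 fell in SAFB DKO, and without WT replicate 1 or 3, 5 and 7. Without WT replicate 1 or 2, 7 fell in EZH2 KO. The medians were -0.58 or lower in each of these. Their summed level was 570 and 752 CPM in SAFB DKO, 1761 and 1809 CPM in EZH2 KO and 2133, 1931 and 1811 CPM in WT. Most of that sum came from the 2 features past Mir673 and opposite Rtl1, which fell in SAFB DKO and had no call in EZH2 KO. Between them, chr12:109581316-109584758, 1.00 kb past Mir493, had 99.3 and 118 CPM in SAFB DKO, 30.7 and 45.4 CPM in EZH2 KO and 206, 170 and 188 CPM in WT. It fell in both, with -0.79 in SAFB DKO (SE 0.18, edgeR adjusted p = 0.0039; -0.68 and adjusted p = 0.055 without SAFB DKO replicate 1) and -2.31 in EZH2 KO (SE 0.19, adjusted p = 6.9e-06).

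Of the 23 features between Rian and Mirg, 6 fell in SAFB DKO (median -0.41) and 11 fell in EZH2 KO (median -0.98). Without single libraries the counts were 1 to 4 in SAFB DKO and 5 to 12 in EZH2 KO, and DESeq2 gave 4 and 10. Some fell in EZH2 KO alone by these calls, without a test of the difference. The feature chr12:109684962-109687027 had 18.2 and 34.1 CPM in SAFB DKO, 2.26 and 9.28 CPM in EZH2 KO and 23.3 to 31.0 CPM in WT. It had 0.00 in SAFB DKO (edgeR adjusted p = 1.00) and -2.19 in EZH2 KO (SE 0.41, adjusted p = 0.0021). The feature chr12:109707569-109707699 had 5.98 and 7.75 CPM in SAFB DKO, 1.20 and 0.472 CPM in EZH2 KO and 4.96 to 8.35 CPM in WT. It had 0.13 in SAFB DKO (adjusted p = 0.87) and -2.89 in EZH2 KO (SE 0.49, adjusted p = 0.00099). Others fell in SAFB DKO with no call in EZH2 KO, such as chr12:109690387-109690784, with 0.775 and 1.67 CPM in SAFB DKO, 3.61 and 4.40 CPM in EZH2 KO and 3.29 to 4.504 CPM in WT (-1.65, adjusted p = 0.010, in SAFB DKO and 0.071, adjusted p = 0.93, in EZH2 KO). That fall lost its call without SAFB DKO replicate 1 (-1.19, adjusted p = 0.14) and without WT replicate 1 (-1.52, adjusted p = 0.072). The features with miR-543, miR-495 and miR-376c fell in SAFB DKO, with -1.04, -1.07 and -0.78, and those with miR-495 and miR-376c also fell in EZH2 KO, with -0.90 and -1.01. The miR-495 call was lost without SAFB DKO replicate 1 (-0.84, adjusted p = 0.059) and, in EZH2 KO, without WT replicate 1 or 2 (adjusted p = 0.09 and 0.081). The miR-376c call in SAFB DKO was lost without any 1 of its 5 libraries (-0.75 to -0.85, adjusted p from 0.091 to 0.17), and that in EZH2 KO without EZH2 KO replicate 1 or any 1 of the WT libraries (-0.78 to -1.06, adjusted p from 0.065 to 0.086). The single listed peak of the region had 12.4 and 16.8 CPM in SAFB DKO, 157 and 170 CPM in EZH2 KO and 79.4 to 105 CPM in WT.

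**Figure D5:**
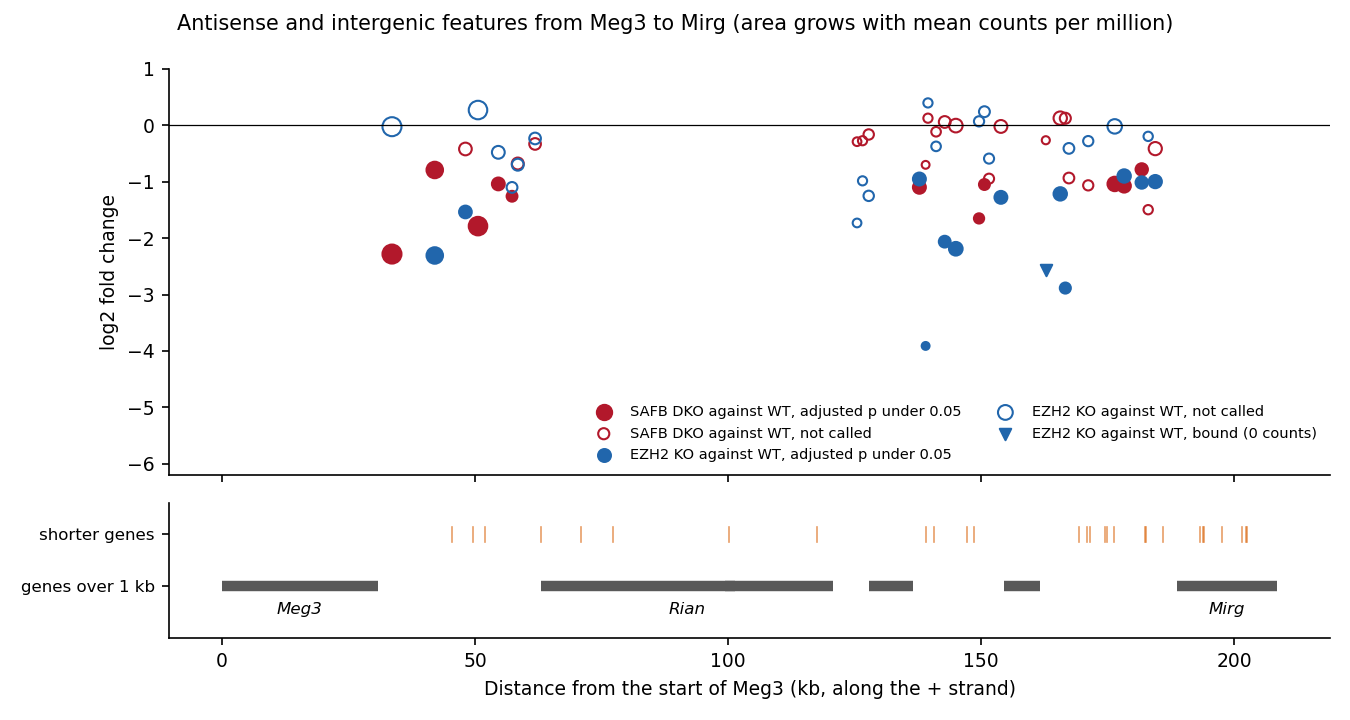
Log2 fold change of the 31 antisense and intergenic features by distance from the start of Meg3 (kb along the plus strand), SAFB DKO against WT in red and EZH2 KO against WT in blue; filled points had an adjusted p under 0.05, open points did not, the triangle is a bound for a feature without counts in EZH2 KO, and the lower panel shows GENCODE M21 genes. Of the SAFB DKO points 11 are filled, the lowest at -2.28 past Mir673; of the EZH2 KO features 13 passed, most of them past Rian.

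Gene lists chosen with earlier results of these data known were read at their borders, both opposite the listed genes and within 10 kb downstream of them. Antisense features of replication-dependent histone genes, whose messages end in a stem-loop in place of a poly(A) tail, had a median of 0.98 in SAFB DKO (6 of 30 tested rose and 0 fell) and -1.16 in EZH2 KO (0 rose and 4 fell). Without SAFB DKO replicate 1 the SAFB DKO median was 0.52 and 0 rose, and 3, 2 and 1 rose without WT replicates 1, 2 and 3 in turn. In EZH2 KO 2 fell without any 1 of the WT libraries, and 9 without EZH2 KO replicate 2. Opposite the linker histone gene Hist1h1c, which also lies 5.48 kb past Hist1h3c, 69.7 and 49.2 CPM in SAFB DKO stood against 26.7 to 34.5 CPM in WT (0.95, SE 0.21, edgeR adjusted p = 0.0035; 0.67 and adjusted p = 0.094 without SAFB DKO replicate 1), with 20.1 and 29.4 CPM in EZH2 KO. Opposite ribosomal protein genes 10 of 69 antisense features rose and 3 fell in SAFB DKO (median 1.02), and 0 rose and 10 fell in EZH2 KO (median -1.23, or -0.997 with features at 0 set to their bound). Opposite Rpl13a, where snoRNA host introns lie, there were 47.1 and 24.9 CPM in SAFB DKO, 9.02 and 6.92 CPM in EZH2 KO and 12.4 to 15.3 CPM in WT (1.34, SE 0.25, adjusted p = 0.00087, in SAFB DKO; 0.80 and adjusted p = 0.069 without SAFB DKO replicate 1). Without that library 0 of the 69 rose and 3 fell (median 0.44), without SAFB DKO replicate 2 15 rose and 0 fell, and 4, 2 and 2 rose without WT replicates 1, 2 and 3. In EZH2 KO 2, 2 and 3 fell without those WT libraries, and 6 and 17 without EZH2 KO replicates 1 and 2. Among all tested features 2.26% rose in SAFB DKO. In EZH2 KO 13.3% of these histone and 14.5% of these ribosomal features fell. Beside them, 8.07% of all tested, 3.08% of all antisense and 14.5% of unlisted exonic features fell in EZH2 KO. The features of these 2 lists lie opposite abundant sense RNA that can share reads with copies and pseudogenes.

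Opposite small structured RNA genes 6 of 30 rose and 1 fell in SAFB DKO (median 0.67; 0 rises and -0.033 without SAFB DKO replicate 1, and 3, 2 and 2 rises without WT replicates 1, 2 and 3). Within 10 kb downstream of a listed gene, counts are read against the 17.4% of all tested features and 30.9% of intergenic features that fell in SAFB DKO. For EZH2 KO they are read against the 7.50% of all tested features that rose and the 8.07% that fell. Within 10 kb past ribosomal protein genes SAFB DKO had 17 falls and 0 rises among 69 tested features (median -0.64; 7 falls without SAFB DKO replicate 2 and 8, 11 and 11 without WT replicates 1, 2 and 3), so 24.6% fell. Past small structured RNA genes 38 of 120 (31.7%) fell and 0 rose in SAFB DKO (median -0.95; 24, 21, 18, 23 and 23 fell without SAFB DKO replicates 1 and 2 and WT replicates 1 to 3), and in EZH2 KO 12 rose and 9 fell (median 0.33, but -0.056 and -0.055 without EZH2 KO replicates 1 and 2, and 3, 3 and 4 rises without WT replicates 1, 2 and 3). Past histone genes 4 of 23 rose and 1 fell in SAFB DKO, with a median of 0.12 (0 rises and -0.56 without SAFB DKO replicate 1, and 2, 1 and 1 rises without WT replicates 1, 2 and 3).

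Pluripotency genes gave mixed values at their borders. Their EZH2 KO counts stand beside 7.50% of all tested features that rose and 8.07% that fell. Within 10 kb past them SAFB DKO had 7 falls (29.2%, near the share of all intergenic features) and 1 rise among 24 tested features (median -1.27; 4 falls without any 1 of the WT libraries), and 5 fell and 0 rose in EZH2 KO (median -0.61). The rise was 3.46 kb past Dnmt3l, with 53.0 and 48.4 CPM in SAFB DKO, 11.9 and 9.28 CPM in EZH2 KO and 24.9 to 33.8 CPM in WT. It had 0.79 in SAFB DKO (SE 0.19, edgeR adjusted p = 0.0077; adjusted p = 0.073 without SAFB DKO replicate 1 and 0.067 without WT replicate 2) and -1.47 in EZH2 KO (SE 0.22, adjusted p = 0.00042). Past Lefty2, which encodes a Nodal antagonist, a feature 0.973 kb on had 0.456 and 1.13 CPM in SAFB DKO, 3.46 and 5.98 CPM in EZH2 KO and 5.61 to 7.26 CPM in WT (-3.04, SE 0.44, adjusted p = 7.2e-05, in SAFB DKO). Opposite pluripotency genes 5 of 79 fell and 1 rose in SAFB DKO, and 10 rose and 1 fell in EZH2 KO (6, 5 and 5 rises without WT replicates 1, 2 and 3). One of these, chr12:86440725-86442219 opposite an intron of the nuclear receptor gene Esrrb, had 1.78 and 1.08 CPM in SAFB DKO, 31.7 and 41.2 CPM in EZH2 KO and 2.92 to 4.47 CPM in WT. That feature had -1.29 in SAFB DKO (adjusted p = 0.0075; -1.02 and 0.091 without SAFB DKO replicate 2) and 3.36 in EZH2 KO (SE 0.27, adjusted p = 6.0e-06).

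Imprinted genes had 11 of 43 antisense features that fell and 1 that rose in SAFB DKO (median -0.79, and -0.23 without WT replicate 1). The 25.6% that fell stood beside 20.4% of all antisense and 17.4% of all tested features. In EZH2 KO 5 rose (11.6%) and 1 fell (median -0.11, and 0.12 without WT replicate 1), where 7.50% of all tested features rose and 8.07% fell. Opposite Grb10, a growth-restraining adaptor gene, chr11:11930769-11933980 had 2.01 and 1.61 CPM in SAFB DKO, 53.7 and 88.9 CPM in EZH2 KO and 6.25 to 11.1 CPM in WT. It had -2.18 in SAFB DKO (SE 0.31, edgeR adjusted p = 7.2e-05) and 3.10 in EZH2 KO (SE 0.26, adjusted p = 7.3e-06). Opposite H19, chr7:142576674-142578000 was the 1 that rose in SAFB DKO, with 23.5 and 10.3 CPM in SAFB DKO, 23.8 and 22.02 CPM in EZH2 KO and 8.87 to 10.02 CPM in WT. It had 0.85 in SAFB DKO (adjusted p = 0.041) and 1.28 in EZH2 KO (adjusted p = 0.0066). Its SAFB DKO value was 0.12 without SAFB DKO replicate 1 and missed the threshold without WT replicate 1, 2 or 3 (adjusted p = 0.17, 0.15 and 0.11). Within 10 kb past imprinted genes 4 of 10 fell in SAFB DKO. One of them, 1.09 kb past Tsix, the antisense partner of Xist, had 0.593 and 1.08 CPM in SAFB DKO, 13.4 and 12.4 CPM in EZH2 KO and 5.88 to 8.93 CPM in WT (-3.21 in SAFB DKO, SE 0.37, adjusted p = 5.8e-06). A feature 3.20 kb past Ube3a, a ubiquitin ligase gene, and opposite Snhg14 had 26.2 and 17.2 CPM in SAFB DKO, 0.150 and 0.944 CPM in EZH2 KO and 19.9 to 24.4 CPM in WT. It fell in EZH2 KO (-5.35, SE 0.45, adjusted p = 7.0e-06) with no call in SAFB DKO (-0.04, adjusted p = 0.96). Polycomb target genes of development had 5 downstream and 7 antisense features, of which 2 and 1 were tested. Both downstream ones, past the homeobox gene Otx2, fell in SAFB DKO, with -1.77 and -5.65 (adjusted p = 0.029 and 0.0010; the first call was lost without any 1 of its 5 libraries, adjusted p from 0.05 to 0.18), and the 1 opposite Eomes had no call. In EZH2 KO 1 of the 2 features past Otx2, chr14:48655305-48655423, rose and 0 fell. That rise lost its call without WT replicate 1, 2 or 3 (edgeR adjusted p = 0.14, 0.16 and 0.098), and its value was 1.18 without EZH2 KO replicate 1. Where edgeR called 0 features of a list in 1 direction, at most 1 had an unadjusted p under 0.05 in that direction and DESeq2 also called 0. The exceptions were small structured RNA genes, with 2 rises downstream in SAFB DKO both by unadjusted p and by DESeq2, and histone genes, with 3 rises downstream in EZH2 KO by unadjusted p and 0 by DESeq2.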

How the data were processed

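The authors deposited raw counts (reads per feature, not normalised), made with featureCounts 2.0.3 in reverse-stranded mode per the file headers (strand setting 2), on mm10 intervals whose names say that they were called on pooled WT reads. The deposited peak lists give named intervals with a column of peak length in bases (unit: other), and were used for membership only. Neither the aligner nor the peak caller is named in those sources. Another 6 value columns of the table (4 pooled, 2 of no sample here) were not used. Libraries were made after ribosomal RNA depletion, per the labels' protocols.

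Here, features were placed on GENCODE M21 by bases, and the nearest gene end upstream on the strand gave the distance. Replicates are clones or the parental line. EdgeR 4.0.16 in R 4.3.3 (glmQLFit, filterByExpr) fitted the 7 libraries by group on 192964 features, with TMM factors taken over the 170869 tested ones that the filtered list leaves out; CPM values are scaled by them. P-values were Benjamini-Hochberg adjusted over all tested features, with 0.05 as threshold, and the groups share 1 estimate of the spread. Fold changes are log2, tested genotype over the other. Counts summed per library were compared by exact two-sided permutation over libraries of the difference of means. The fit was tested on simulated data, where it missed some changes and also called some unchanged features. The depth limits sparse features: most features outside genes were under the filter.

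Named features were, per class, the 5 most abundant, the 3 largest falls and rises of each knockout among called features of at least 1 CPM without group overlap, and the most abundant intergenic feature of each distance; features within 10 kb were named once. The features with microRNA hairpins, the one opposite 7SK, the Meg3 region and the features named beside gene lists (chosen for abundance or calls) were chosen after values were seen. The members and gene lists were chosen with earlier results of these data known. Splits by the exon or intron opposite, by nearness to a listed peak and by divergent starts, values without chromosomes M and Y or without the 8 leading genes, and counts of gene lists and splits under left-out libraries were added after the data were seen. MicroRNA and 7SK sequences are from RefSeq (GRCm38.p6). DESeq2 1.42.0 was an alternative.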

Additional observations from a re-analysis of the deposited data

How the results depend on the processing

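Among the recomputed values of the features named in the text, 93 lost the call, 24 gained one and 2 called values changed direction. The rest kept their side of the threshold. Changes of direction among values without a call in either setting were not counted. The fall of intergenic features relative to all tested features in SAFB DKO kept its sign under every alternative run, and all 7 distances stayed below the median of all tested features. With every base required outside a gene no feature starts inside one, and the remaining 6 distances stayed below. Replicate numbers did not pair the libraries: the correlation of deviations was 0.036 for number 1 and 0.007 for number 2 between EZH2 KO and WT. With the replicate block in EZH2 KO against WT, 347 antisense (otherwise 979) and 673 intergenic features (otherwise 1763) were called, and antisense features up to 1 kb past a gene end had a median log2 fold change of -0.077 (otherwise 0.18). No paired analysis was possible for the comparisons with SAFB DKO because its columns share too few numbers with the others for a block. For the differences from the values in the report the cause was not tested, except that fewer features or libraries enter some settings.

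With a mean of at least 50 counts fewer features were tested. The called antisense features numbered 722 in SAFB DKO against WT, 543 in EZH2 KO against WT and 903 in SAFB DKO against EZH2 KO (otherwise 2334, 979 and 4127), and the intergenic ones 1079, 958 and 1287 (otherwise 3722, 1763 and 5829). The class median less that of all tested features was -0.95 (antisense) and -1.32 (intergenic) in SAFB DKO against WT, and -1.53 and -2.31 in SAFB DKO against EZH2 KO. With no filter beyond 1 count, EZH2 KO medians turned negative, at -0.32 for antisense features up to 1 kb, -0.77 for intergenic features, and -0.24 up to 1 kb, -0.48 at 1 to 5 kb, -0.73 at 10 to 50 kb, -0.90 at 50 to 100 kb and -0.96 beyond. Relative to all tested features EZH2 KO then had -0.066 (antisense) and -0.057 (intergenic), with 4 distances below in both classes. SAFB DKO against EZH2 KO had -0.13 and -0.80, and intergenic features had -1.67 in SAFB DKO against WT.

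Column totals gave -0.065 for antisense features up to 1 kb in EZH2 KO. With every base required outside a gene, the intergenic difference in SAFB DKO was -1.43 and the antisense share of SAFB DKO over EZH2 KO 0.908. With distance from the midpoint, antisense features starting inside a gene had -0.41 in EZH2 KO and 0.20 in SAFB DKO against EZH2 KO, and 1 antisense distance lay below all features in EZH2 KO. With counts outside the filtered list as denominator, the antisense share was 1.08 in EZH2 KO over WT and 0.753 in SAFB DKO over EZH2 KO. Without chromosomes M and Y these were 1.02 and 0.821. Antisense counts per intronic count were then 0.89 in SAFB DKO over WT, 1.005 in EZH2 KO over WT and 0.886 in SAFB DKO over EZH2 KO, and the 5-kb share was 0.966 in EZH2 KO over WT.

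Leaving out 1 library at a time gave these ranges. In SAFB DKO against WT, 1302 (without WT replicate 1) to 3784 (without EZH2 KO replicate 1) antisense and 2185 (without SAFB DKO replicate 1) to 5706 (without EZH2 KO replicate 1) intergenic features were called. In EZH2 KO against WT these were 350 (without WT replicate 3) to 1596 (without EZH2 KO replicate 2) and 709 to 2643 (without the same libraries). EZH2 KO medians were lowest without EZH2 KO replicate 2 and ran from -0.23 to 0.28 for antisense features up to 1 kb, from -0.11 to 0.48 for intergenic features, from -0.16 to 0.36 up to 1 kb, from -0.13 to 0.40 at 1 to 5 kb and from -0.073 to 0.62 beyond 100 kb. In SAFB DKO against EZH2 KO, antisense medians ran from -1.34 to 0.15, and at 5 to 10 kb from -1.34 to 0.20. Relative to all tested features, antisense values ran from -0.90 (without SAFB DKO replicate 1) to 0.033 (without SAFB DKO replicate 2) in SAFB DKO against WT, from 0.055 to 0.35 in EZH2 KO with 0 to 3 distances below, and from -1.30 to -0.19 in SAFB DKO against EZH2 KO. Intergenic ones ran from -1.56 to -1.36 in SAFB DKO against WT. The antisense share ran from 0.784 to 1.13 in SAFB DKO over WT and from 0.831 to 1.20 over EZH2 KO, and per intronic count from 0.835 to 1.19 and from 0.90 to 1.29. The feature chr3:62159411-62159493 ran from -1.64 to 3.60 in SAFB DKO and chr7:41544083-41546790 from -0.13 to 1.83 in EZH2 KO. Depth limits the rest: most features outside genes stayed under the filter, and EZH2 KO libraries were the shallowest.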

Other observations

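Some intergenic features formed long runs on 1 strand. Joining tested intergenic features within 10 kb of each other gave 7027 runs, of which 4966 were single features, 305 had 5 or more features and 63 had 10 or more. A run of 76.0 kb on chromosome 3, past Gm40040 on the minus strand, had 22 tested features, of which 19 fell and 0 rose in SAFB DKO (median log2 fold change -3.28) and 13 rose and 0 fell in EZH2 KO (median 1.57). Its summed level was 16.0 and 21.7 CPM in SAFB DKO, 843 and 1083 CPM in EZH2 KO and 342, 375 and 141 CPM in WT. A run of 59.0 kb past Tfap2c, which encodes a transcription factor of trophoblast and germ cells, behaved otherwise: in SAFB DKO edgeR called 0 of its 24 tested features lower and 0 higher (2 and 1 at an unadjusted p under 0.05, and 0 and 1 by DESeq2; median -0.07). In EZH2 KO 10 fell and 0 rose (median -1.93), with 4 falls without WT replicate 2 or 3, 6 without EZH2 KO replicate 1, and 0 rises at an unadjusted p or by DESeq2. It had 52.0 and 67.9 CPM in SAFB DKO, 24.1 and 28.8 CPM in EZH2 KO and 54.1, 74.9 and 49.1 CPM in WT. Of all tested features 17.4% fell in SAFB DKO, and in EZH2 KO 8.07% fell and 7.50% rose. Of intergenic features 30.9% fell in SAFB DKO, and in EZH2 KO 3.94% fell and 10.96% rose. The longest run, past Gm22189 on chromosome 12, had 71 tested features. Of these 9 fell and 0 rose in SAFB DKO, and 0 fell and 11 rose in EZH2 KO. The runs past Gm40040 and Tfap2c were chosen for naming after their values were seen.

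The mitochondrial minus strand held 5 antisense features, with a summed level of 4122 and 4500 CPM in SAFB DKO, 304 and 691 CPM in EZH2 KO and 1753, 2096 and 2953 CPM in WT. Of these, 3 rose in SAFB DKO and 4 fell in EZH2 KO. Counts from any minus-strand gene within these features were not separated. The 7 features on the plus strand, which holds most annotated mitochondrial genes, summed to 1980 and 2724 CPM in SAFB DKO, 187 and 462 CPM in EZH2 KO and 1166, 1201 and 1704 CPM in WT.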
